A study of Mus musculus with 48 samples.

Results

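The cells described here are the 161 cells of the knee joint that the study's deposited annotation labelled T cells, and they were taken by that label together with the organ of each cell. They came from 8 male DBA1/J mice and formed a small share of 2230 annotated joint cells, of 1788 cells labelled T cells in all organs, and of 12096 annotated cells in the series. Of these cells, 29 came from 3 healthy mice (12 from H3, 11 from H4 and 6 from H7) and 132 came from 5 mice with collagen-induced arthritis, CIA (42 from S1, 10 from S3, 58 from S5, 14 from S6 and 8 from S8). CIA was induced by intradermal injection of 100 µg bovine collagen II in complete Freund's adjuvant near the tail base, followed by a booster on day 20 in incomplete adjuvant. The healthy mice were injected with saline in place of collagen and had an arthritis score, the sum of the scores of the limbs, of 0. S1, S3 and H3 belonged to the experiment the labels call 2CIA, and the other joint samples to the experiment called CIA. The arthritis score was 8 in S1 and S3, 4 to 5 in S5, 3 to 4 in S6 and 2 to 3 in S8, so that within the CIA group the score and the experiment cannot be told apart. Whole joint tissue was frozen, thawed, minced and digested with enzymes before single cells were captured by Seq-Well, a method that reads the 3' ends of transcripts from cells in an array of wells and counts molecules by unique molecular identifiers (UMIs).

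T cells recognise antigen through a receptor made of alpha and beta, or gamma and delta, chains, which signals through the CD3 proteins encoded by *Cd3d*, *Cd3e*, *Cd3g* and *Cd247*. The coreceptors CD4 and CD8 divide conventional T cells into helper and cytotoxic lineages, and helper cells are further told apart by factors such as *Tbx21*, *Gata3* and *Foxp3*. In collagen-induced arthritis the response to collagen depends on helper T cells and on antibody from B cells, and interleukin 17, encoded by *Il17a*, is a cytokine known for recruiting neutrophils to inflamed joints. The bones of the knee also hold marrow, in which granulocytes, B cells and red cells mature.

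The joint cells labelled T cells held few transcripts of genes that define T cells. Among the 4 marker genes of the label, *Bcl11b*, a transcription factor needed for T lineage commitment, had 4 UMIs in 4 cells, *Il7r*, the interleukin 7 receptor, had 4 UMIs in 4 cells, and *Cd3d* and *Cd3e* had 1 UMI each, both in the same cell of S5. All 10 UMIs came from S1, S5 and S6, and no cell of H3, H4, H7, S3 or S8 held one. Over the 29 healthy cells, a count of 0 allows a share of up to 10.3% of cells with such a UMI. *Lef1*, a transcription factor of naive T cells and of lymphoid precursors, had 10 UMIs, of which 7 were in S5.

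The genes of the receptor itself were as sparse. *Trac*, the constant region of the alpha chain, had 4 UMIs, *Trbc1* had 2, *Trbc2* had 6, *Trdc* of the delta chain had 3, and *Tcrg-C1* and *Cd247* had 0. No UMI of *Cd4*, *Cd8a* or *Cd8b1* was present in any of the 161 cells, which allows a share of up to 1.86% of cells with a UMI of each gene. Of the 11 genes of CD3 and of the receptor constant regions, at least 1 UMI was found in 10 of 161 cells (6.21%, exact 95% interval 3.02 to 11.1). These were 4 cells of S1, 3 of S6 and 1 each of H4, H7 and S5. The intervals cover counting error alone.

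Cells labelled T cells in muscle, from the same series, carried these genes far more often. In muscle, 552 of 1283 labelled T cells (43.0%, 40.3 to 45.8) held a UMI of CD3 or of the receptor, although their median depth of 579 UMIs was below the 826 UMIs of the joint cells. After every cell was thinned to 400 UMIs, the shares were 4.63% in joint and 33.3% in muscle. *Trbc2* was found in 3.11% of the joint cells and 22.1% of the muscle cells, and in none of the joint cells labelled granulocytes or fibroblasts. *Cd3d* was found in 0.621% of the joint cells and 11.4% of the muscle cells, but also in 1.49% of joint fibroblasts, so that its share in the joint cells labelled T cells was no higher than the background. The muscle samples were not uniform, with a share from 0% in H4 and S1 to 65.3% in S6, where S1 held a single cell of this label. Of the 552 muscle cells, 257 came from S2, a mouse without a joint sample, and 154 from S6. The pooled share and its interval therefore lean on these mice. Within animals, the share was higher in joint in H4 (9.09%) and S1 (9.52%). It was higher in muscle in H3, H7, S3, S5, S6 and S8, narrowly so in H7 (21.1% against 16.7%). Several of these directions rest on 1 or 2 cells. In muscle such cells were 1 of 9 in H3 and 2 of 9 each in S5 and S8. In joint they were 0 of 12, 1 of 58 and 0 of 8 in these mice. In H4 they were 1 of 11 in joint and 0 of 17 in muscle.

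**Figure D1:**
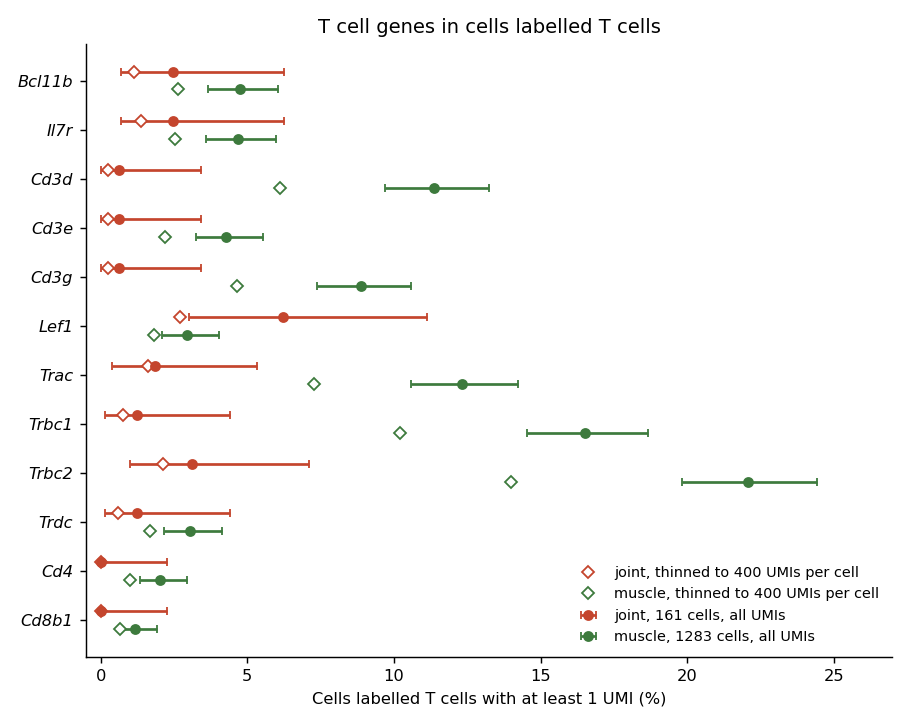
Share of cells labelled T cells (%, horizontal axis) with at least 1 UMI of each T cell gene (rows) in joint and muscle, with exact 95% intervals, for all UMIs (filled) and after thinning to 400 UMIs per cell (open). *Trbc2* reached 22.1% of the muscle cells and 3.11% of the joint cells, and no joint cell held *Cd4* or *Cd8b1*.

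The marker genes with which the study named the T cell clusters, which include *Bcl11b*, *Il7r* and *Lef1*, are another set of 4 genes, and they had 22 UMIs in the 161 cells. In UMIs per 1000000 UMIs (CPM), their sum was above that of all other joint cells of the same mouse in H3 (71.3 against 0), S1 (76.5 against 14.4), S5 (162.2 against 19.3) and S6 (494.7 against 17.9). It was 0 in H4, S3 and S8, where the other joint cells were at 29.5, 24.8 and 28.8, and 0 in both sets of cells in H7. Outside S1 and S5 the summed depth was 5621 to 14036 UMIs per mouse, so these values rest on very few UMIs. At that depth a sum of 0 does not show a level below that of the other joint cells. Since the genes of CD3, the receptor and the coreceptors were found in few of the cells, the cells are called joint cells labelled T cells in what follows. The authors' labels rest on reference profiles, on clusters of counts denoised by a neural network and on marker genes enriched in each cluster, so that a label belongs to a cluster, while the values here are the counts of single cells before denoising. The cells labelled T cells had a median of 517.5 to 1333.5 UMIs per mouse, and their summed depth ran from 5621 UMIs in H7 to 73983 in S5. In sums per mouse, fewer cells of a kind and less RNA per cell cannot be told apart. None of the 161 cell barcodes was found in the muscle library of the same mouse, and 2 were found in some other joint or muscle library.

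The clearest T cell profile belonged to 1 cell of S5. With 1036 UMIs in all, it held 1 UMI each of *Cd3d*, *Cd3e*, *Cd3g* and *Bcl11b*, 2 of *Trdc*, 3 of *Trdv4*, a variable segment of the delta chain, and 4 of *Il17a*. It also held 5 UMIs of *Ltb*, which encodes lymphotoxin beta, 4 of *Cd69*, an early activation antigen, and 1 of *Cd163l1*, a scavenger receptor gene known from gamma delta T cells that make interleukin 17. A second S5 cell of 429 UMIs held 1 UMI of *Il17a*, 1 of *Trdv4* and 2 of *Cd69*, and a cell of S6 held 1 of *Il17a* and 1 of *Il7r*. These 3 cells carried all 6 *Il17a* UMIs, and none was found in the other CIA mice or in the healthy mice. This cell and the receptor-bearing cells were looked at one by one after the values were seen.

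The 9 other cells with a receptor UMI held it beside other lymphocyte genes or alone. In S6, a cell with 1 *Trbc2* UMI held 8 UMIs of *Xcl1*, a chemokine of natural killer and cytotoxic T cells, and a cell with 1 *Trdc* UMI held 3 of *Xcl1* and 7 of *Ccl5*. In H4, the cell with 1 *Trbc2* UMI held 2 of *Xcl1*, 2 of *Ccl5* and 1 of *Nkg7*, a protein of cytotoxic granules. In S1, a cell held 2 UMIs of *Trbc2* and another held 1 of *Trbc1* with 1 of *Trbc2*. The *Cd3d* gene is at chr9:44981786-44987339 on the plus strand and *Il17a* at chr1:20730905-20734496 on the plus strand of GRCm38.

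Other genes set the joint cells labelled T cells apart from the rest of the joint. Against all other joint cells, the genes with the highest ratio of CPM included *Ctsg* (35.8-fold), *Mpo* (19.5-fold), *Vpreb3* (17.5-fold) and *Cd79a* (16.1-fold). *Ctsg*, *Mpo*, *Elane*, *Prtn3* and *Ms4a3* encode cathepsin G, myeloperoxidase, neutrophil elastase, proteinase 3 and a membrane protein, and are characteristic of the promyelocyte stage of granulocyte maturation. *Cd79a*, *Cd79b*, *Vpreb3* and *Igll1* belong to the B cell receptor and to the surrogate light chain of its precursors. These ratios describe the label and are given without a test, since the label was made from the same cells. The following gene groups were drawn up after the leading genes had been seen, and a cell was counted in a group when it held at least 2 UMIs of it.

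The primary granule group of these 5 genes was found in 37 of the 161 cells (22.98%). They held a median of 1869 UMIs per cell, more than the 826 of all joint cells with the label. Of all 695 UMIs of the group, 173 (24.9%) were in a single cell of S1. *Elane* was found in 27 cells (16.8%) against 37 of 759 joint granulocytes (4.88%) and 8 of 603 fibroblasts (1.33%), and after thinning these shares were 10.9%, 2.64% and 0.310%. *Mpo* was found in 30 cells (18.6%) against 2.503% of joint granulocytes and 0.663% of fibroblasts. Among the few joint cells labelled dendritic cells, 11 of 20 held a UMI of the group. *Elane* is at chr10:79886247-79888215, next to *Prtn3* at chr10:79874476-79883174, both on the plus strand, and *Mpo* is at chr11:87793581-87804413 on the plus strand of GRCm38.

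The B lineage group of 10 genes (among them *Cd79a*, *Cd79b*, *Vpreb3* and *Igll1*) was found in 41 of the cells (25.5%), with a median of 856 UMIs per cell. None of these cells was also in the primary granule group. *Cd79a* was found in 25 cells (15.5%) and in 0.791% of joint granulocytes, and *Vpreb3* was found in 17 cells (10.6%) and in 0.264% of granulocytes. The group was not particular to these cells. At least 1 UMI of it was found in 57 of the 161 cells (35.4%) and in 4.08% of joint granulocytes. The share was 66.7% in joint cells labelled neutrophils (22 of 33) and 42.6% in muscle cells labelled T cells (547 of 1283). After thinning, the shares were 28.3% in the 161 cells, 47.5% in these neutrophils and 30.5% in muscle. *Igll1*, the surrogate light chain, had 13 UMIs in 11 cells. *Cd79a* is at chr7:24897381-24902197 on the plus strand and *Vpreb3* at chr10:75943057-75949657 on the plus strand.

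A smaller set of 14 cells (8.70%) held the chemokine and cytotoxic group of *Ccl5*, *Xcl1*, *Nkg7*, *Gzmb* and *Klrd1*, which natural killer cells and cytotoxic T cells share. In other joint cells the share was 0.400%, and among 759 granulocytes and 603 fibroblasts it was 0. *Ccl5*, a chemokine of effector lymphocytes, had 41 UMIs in 9 cells, and *Xcl1* had 35 UMIs in 7 cells, of which 30 UMIs were in S6. The CD3 and receptor group reached 2 UMIs in 5 cells, and a basophil group of *Mcpt8* and *Prss34*, both proteases of basophils, reached it in 3 cells. The remaining 64 cells (39.8%) reached 2 UMIs in none of these groups.

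**Figure D2:**
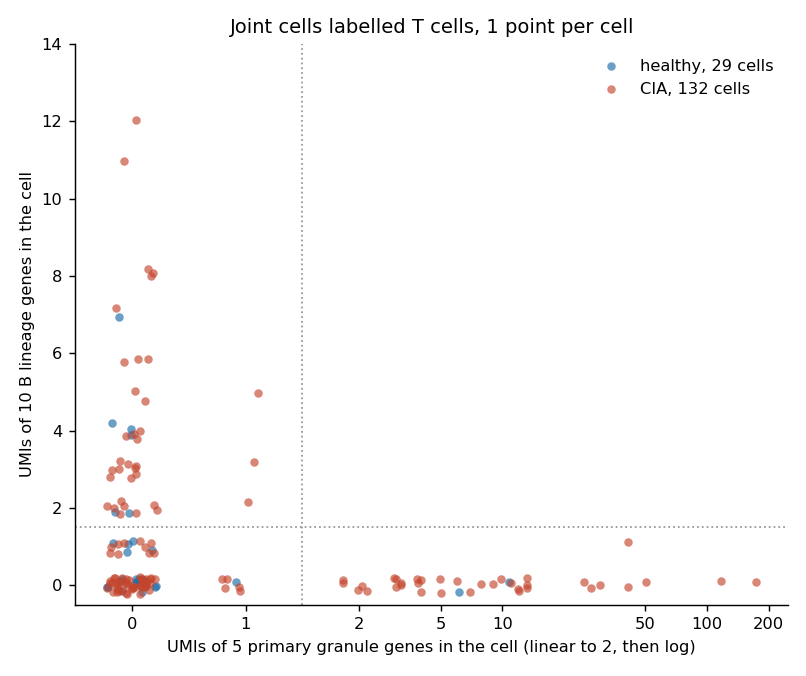
UMIs of the 5 primary granule genes (horizontal axis, linear to 2 UMIs and then logarithmic) and of the 10 B lineage genes (vertical axis) in each of the 161 joint cells labelled T cells, with a small random shift so that points do not hide each other and dotted lines at the limit of 2 UMIs. The 37 cells with at least 2 primary granule UMIs and the 41 cells with at least 2 B lineage UMIs do not overlap.

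The groups were spread unevenly over the mice. Cells with primary granule genes made up 2 of 12 cells in H3, 12 of 42 in S1, 4 of 10 in S3, 16 of 58 in S5 and 3 of 8 in S8, and were not found among the 11 cells of H4, the 6 of H7 and the 14 of S6. Pooled over mice, this amounts to 2 of 29 healthy cells (6.90%) and 35 of 132 cells of CIA mice (26.5%). Cells of the same mouse are not independent, so the pooled shares carry no interval. S6 was the CIA mouse in which no such cell was found, so the shares of the healthy and CIA mice overlapped. The difference between groups of cells was not tested. B lineage cells were 31 of 58 in S5 and 5 of 12 in H3, with 3 in S1, 1 in H7 and 1 in S8. Cells of the chemokine and cytotoxic group were 5 of 14 in S6 and 3 of 11 in H4, with 3 in S1 and 1 each in H3, H7 and S5. S5 gave 58 of the 161 cells, so that totals over all cells lean on that mouse.

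**Figure D3:**
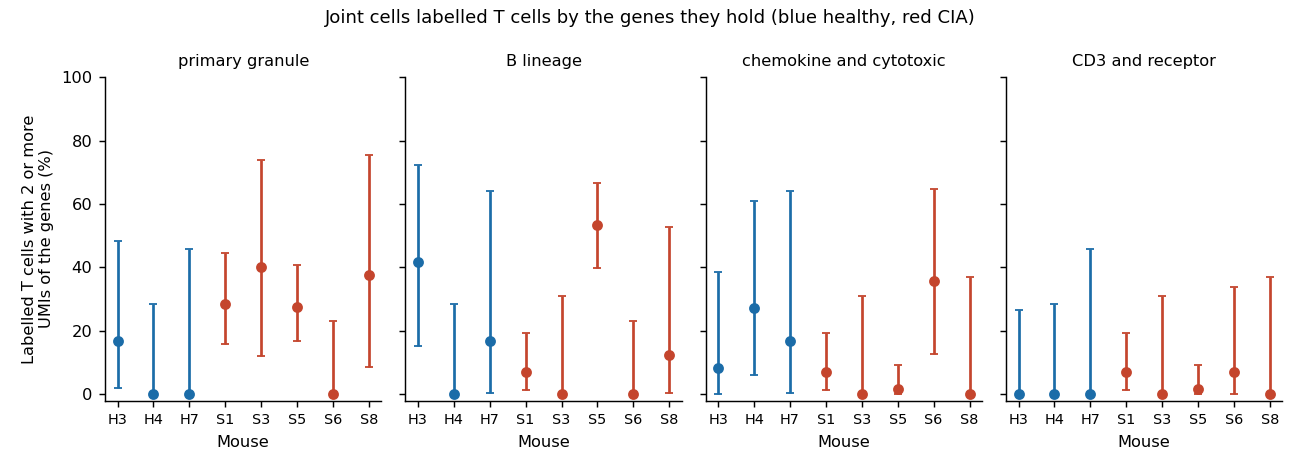
Share of joint cells labelled T cells (%, vertical axis) with 2 or more UMIs of each gene group, by mouse, for 3 healthy (blue) and 5 CIA (red) mice, with exact 95% intervals. Primary granule cells were found in S1, S3, S5, S8 and H3, B lineage cells in S5, H3, S1, H7 and S8, and neither in S6.

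Genes of T cell subsets were sparse in every mouse. Of 14 genes of regulatory T cells, 7 had a UMI and the list had 34 UMIs in all, with 20 of *Capg*, an actin-capping protein not restricted to T cells, 5 of *Tnfrsf18* and 4 of *Il2ra*. *Foxp3* had 1 UMI, in S1. The 22 genes of gamma delta and interleukin 17 cells had 63 UMIs over 13 genes, led by *Serpinb1a* with 22, *Maf* with 9 and *Tmem176b* with 7. The type 2 list of 8 genes had 13 UMIs, with 4 of *Areg*, 3 of *Gata3* and 3 of *Il13*, the last in 1 cell of S6. The follicular helper and inhibitory receptor list of 11 genes had 10 UMIs, with 4 of *Bcl6*, 3 of *Havcr2* and 1 of *Cxcr5*.

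The type 1 and cytotoxic list held more, with 189 UMIs over 10 of 18 genes, although *Tbx21* had 0 and *Ifng*, encoding interferon gamma, had 3 UMIs. *Ccl4*, a chemokine made by activated lymphocytes and myeloid cells, accounted for 117 of them, and 60 of its 69 UMIs in S5 were in a single cell. It was also found in 13.2% of joint granulocytes and 10.6% of the cells labelled T cells. Among effector cytokines, 7 of 13 genes had a UMI, with 23 of *Tgfb1*, 16 of *Ltb*, 6 of *Tnf*, 6 of *Il17a* and none of *Il10*.

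Naive and recirculating genes gave 153 UMIs over 9 of 10 genes. *Foxp1*, which is also expressed in B cells, had 62 UMIs, of which 36 were in S5 and 10 in H3. *Ccr7*, the receptor that guides cells to lymph nodes, had 14, with 6 in S5, 6 in S6 and 2 in S1.

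The 20 activation genes summed to 3918, 4740 and 1779 CPM in H3, H4 and H7, and to 2944, 1828, 3258, 15240 and 1556 CPM in S1, S3, S5, S6 and S8. S6 was the highest, and its other joint cells were at 7052 CPM, also the highest of the 8 mice. The 13 immediate early genes summed to 16520 CPM in S6, against 12670 in H4 and 2507 to 6098 in the remaining mice, and to 15320 CPM in the other joint cells of S6.

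The 3 activation genes with the most UMIs showed the same mouse on top. *Nfkbia*, an inhibitor of NF-kB that NF-kB itself induces, was at 1567, 2999 and 711.6 CPM in the healthy mice and at 1434, 870.4, 1717, 5936 and 605.1 CPM in the CIA mice, in the order given above. *Dusp2*, a phosphatase of activated lymphocytes, was at 356.2, 96.7 and 177.9 CPM in the healthy mice, and at 152.9, 0, 310.9, 1286 and 0 in the CIA mice. *Egr1*, an immediate early transcription factor, was at 285.0, 290.2 and 177.9 CPM in the healthy mice, and at 325.0, 87.0, 94.6, 1385 and 0 in the CIA mice. S6 was the highest of the 8 mice for each of the 3, and the groups overlapped.

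In the other joint cells of S6, *Nfkbia* was at 3643 CPM against 575.5 to 2353 in the other mice, the immediate early gene *Junb* at 3607 against 978.3 to 2392, and *Egr1* at 1454 against 187.0 to 1321. *Dusp2* was at 89.7 CPM there and 1286 CPM in the cells labelled T cells of that mouse, and *Ccl4* at 35.9 and 3463. *Nr4a3*, an orphan nuclear receptor induced by antigen receptor signalling, and *Rgs1*, a signalling regulator of activated lymphocytes, were chosen after their values were seen and are a description only. *Nr4a3* was at 35.9 CPM in the other joint cells of S6 and 1286 CPM in its cells labelled T cells, and *Rgs1* at 0 and 1484. *Nr4a3* is at chr4:48045153-48086447 and *Ccl4* at chr11:83662584-83664683, both on the plus strand.

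**Figure D4:**
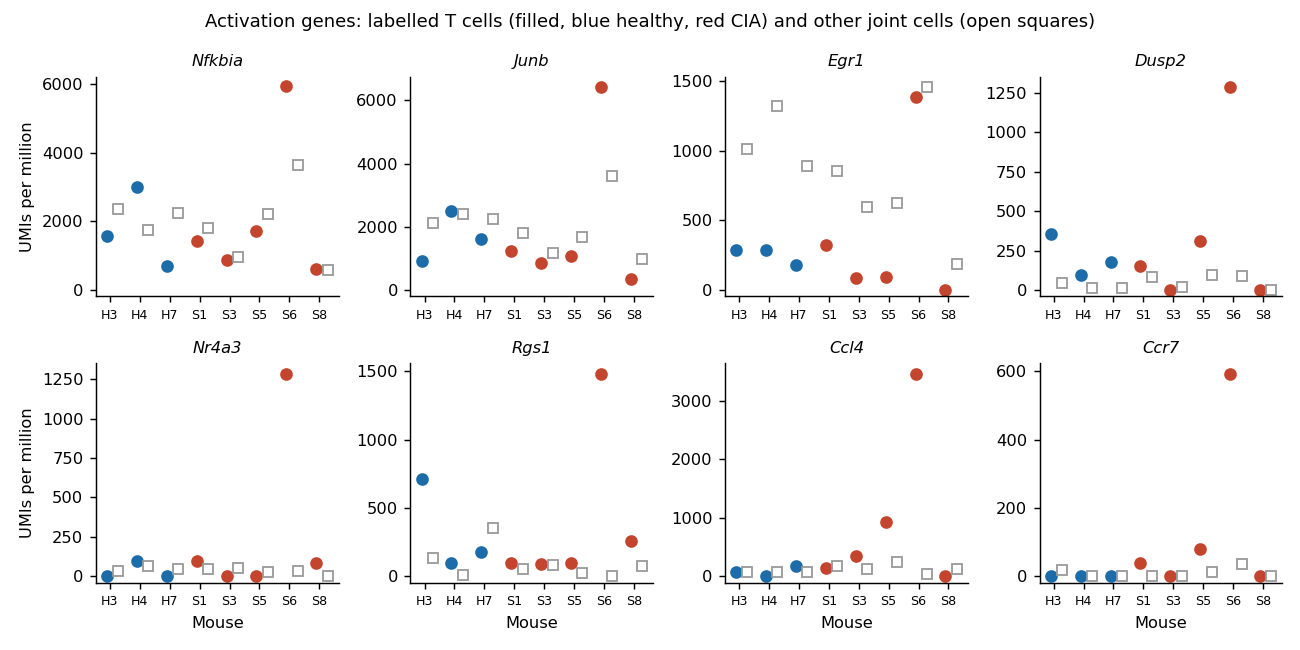
CPM (vertical axis) of 8 activation, immediate early, chemokine and homing genes in joint cells labelled T cells (filled) and in all other joint cells (open squares), by mouse. S6 reached 5936 for *Nfkbia* and 1385 for *Egr1* in the cells labelled T cells, and its other joint cells were at 3643 and 1454. *Nr4a3* and *Rgs1* were picked after their values were seen.

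All 14 genes of the cell cycle list had a UMI, with 851 UMIs in all. *Mki67*, encoding the Ki-67 antigen and chosen after its values were seen, had 57 UMIs in 30 cells (18.6%) against 6.46% of joint granulocytes and 3.15% of fibroblasts, and 8.63%, 2.84% and 1.1% after thinning. Per mouse its level was 427.5, 290.2 and 0 CPM in H3, H4 and H7, and 210.3, 0, 392.0, 0 and 691.5 in S1, S3, S5, S6 and S8. The groups overlapped. *Hmgb2*, a chromatin protein of dividing cells, had 289 UMIs, of which 149 were in S5, 84 in S1 and 1 in S6.

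Of the 20 interferon response genes, 19 had a UMI, with 371 in all and most in *Ly6c2* (153), *Ifi27l2a* (79) and *Ly6e* (51). *Ifi27l2a* had no UMI in the 29 healthy cells, which allows a share of up to 10.3%, and was found in 36 of 132 cells of CIA mice (27.3%). Its level was 592.6, 435.2, 540.7, 0 and 259.3 CPM in S1, S3, S5, S6 and S8. S6 thus lay with the healthy mice at 0, and in the fit without the filter on low counts *Ifi27l2a* had an unadjusted p of 0.000139 and an adjusted p of 0.388 in edgeR. In the other joint cells *Ifi27l2a* was at 66.4 to 81.0 CPM in the healthy and 161.5 to 895.2 CPM in the CIA mice, and the gene was found in 22.2% of joint fibroblasts, at the 22.4% of the cells labelled T cells.

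The comparison of CIA with healthy mice asks whether the cells labelled T cells of arthritic joints differ from those of healthy joints. With counts summed per mouse, 176 genes passed the filter on low counts, and 0 of them passed an adjusted p of 0.05 in edgeR's quasi-likelihood test (0% called), in 3 against 5 mice. Unadjusted, 2 genes had a p under 0.05 (1.14%), and DESeq2 likewise called 0 genes, with 3 at an unadjusted p under 0.05 (1.7%). Without the filter on low counts 1 of 13949 genes was called (0.00717%), and this was *Pf4*, a platelet factor gene that was lower in CIA mice and had 38 of its 41 UMIs in H4. Without S6, 0 of 162 genes were called and 14 had an unadjusted p under 0.05. No gene of the 176 had groups without overlap. Over all 176 genes the median log2 difference, CIA minus healthy, was 0.08.

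Among the genes with the smallest p in the direction of CIA were *S100a8*, a calcium-binding protein abundant in neutrophils, and *Elane*, though neither passed the threshold. *S100a8* was at 2636, 7159 and 3558 CPM in H3, H4 and H7, and at 8660, 24460, 14220, 4353 and 28350 in S1, S3, S5, S6 and S8. Without S6, each of the CIA mice lay above each of the healthy mice. Its log2 difference was 2.01 (SE 0.63, unadjusted p 0.00883, adjusted p 0.972 in edgeR, and 0.141 without S6). *Elane* was at 356.2, 0 and 0 in the healthy mice and at 1281, 2263, 1433, 0 and 1383 in the CIA mice, so that S1, S3, S5 and S8 exceeded the healthy mice and S6 did not. Its log2 difference was 3.00 (SE 1.14, unadjusted p 0.0237, adjusted p 0.972 in edgeR, and 0.141 without S6). *Elane* in the healthy group rested on H3, and without H3 the fitted difference was 8.12 (adjusted p 0.987).

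Both genes are markers of granulocytes. The 12 granulocyte markers all had a UMI in these cells and took 0.613%, 1.37% and 0.694% of the UMIs in H3, H4 and H7, and 1.53%, 3.22%, 2.61%, 0.544% and 4.03% in S1, S3, S5, S6 and S8. In the other joint cells the same list took 1.47% to 5.14% in the healthy and 4.40% to 26.1% in the CIA mice. *S100a8* was found in 93.8% of the cells labelled T cells and in 91.7% of fibroblasts, a share at the background for *S100a8*, whereas the share for *Elane* was 16.8% and 1.33%. *Elane* in the other joint cells was likewise at 0 in H4, H7 and S6 and at 159.9 to 273.3 in the mice where the cells labelled T cells held it. The 6 erythroid markers took 0.798% to 2.51% of the UMIs in the healthy and 0.386% to 4.89% in the CIA mice. The part of these other cells in the result was not tested.

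The next genes in the direction of CIA were *Atp5j* (log2 difference 1.79, unadjusted p 0.0573), a subunit of ATP synthase, *Gm10260* (0.61) and *Rps24* (0.57). In the opposite direction they were *Ftl1* (-1.0), the ferritin light chain, *Jun* (-1.04), *Crip1* (-0.89), *Gm10263* (-0.87) and *Rplp0-ps1* (-0.66), and none passed the threshold in edgeR. *Ftl1*, *Gm10260*, *Gm10263*, *Rplp0-ps1* and *Rps24* belong to families with near-identical copies, so that their counts are uncertain. *Ftl1* was at 1567, 1838 and 5515 CPM in the healthy mice and at 1434, 1132, 892.1, 1583 and 1556 in the CIA mice.

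None of the lists of T cell function held a gene that passed. The lists of receptor and signalling, coreceptor, naive, gamma delta and type 17, regulatory, type 1, type 2, follicular helper, cytokine and interferon genes had 0 members that passed the filter on low counts, so the comparison gives no value for them. Of the 20 activation genes *Nfkbia* was tested (0.36), of the 16 residency genes 4 were tested (median -0.39, from -0.89 for *Crip1* to 0.37 for *Lgals1*), of the 14 cell cycle genes *Hmgb2* was tested (0.12), and of the 13 immediate early genes *Jun*, *Junb* and *Klf6* were tested (median 0.42). The MHC class I genes *B2m*, *H2-K1* and *H2-D1*, which present peptides to cytotoxic T cells, had a median of 0.43. In each list 0 members were called, beside 0% of all genes tested. Without S6, *Nfkbia*, *Junb*, *H2-D1* and *H2-K1* changed sign, to -0.61, -0.84, -0.38 and -0.09.

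**Figure D5:**
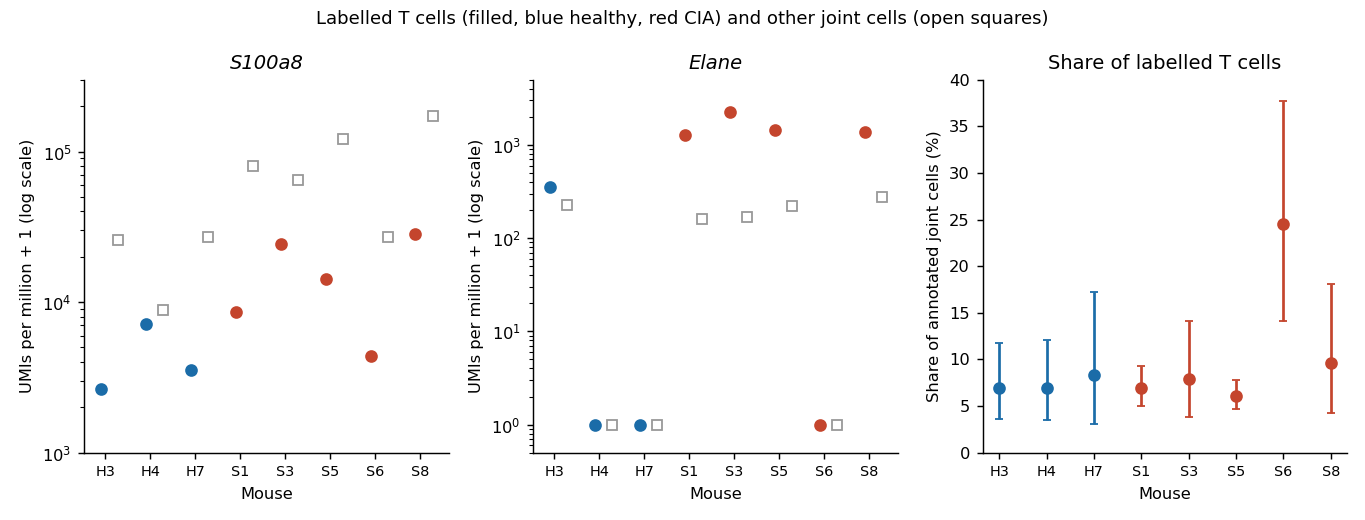
Level of *S100a8* and *Elane* (CPM plus 1, log scale) in joint cells labelled T cells (filled) and other joint cells (open squares), and share of annotated joint cells labelled T cells (%) with exact 95% intervals, by mouse. S6 lies with the healthy mice for *S100a8* (4353) and *Elane* (0), and has the highest share (24.6%).

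The comparison of organs set the 8 joint samples against 9 muscle samples, in which muscle of S1 was left out for holding 1 cell with the label. Muscle was freed of red cells by lysis in some mice and digested with another collagenase, so organ and preparation cannot be told apart. Of 225 genes tested, 3 were called (1.33%). *Ftl1* was higher in joint (log2 difference 1.39, SE 0.29, adjusted p 0.0222 in edgeR). *Igkc*, the kappa light chain constant region of antibodies, was lower (-3.56, SE 0.77, adjusted p 0.0222), and *H2-Ab1*, a chain of MHC class II on antigen-presenting cells, was lower (-2.71, SE 0.62, adjusted p 0.0243). None of the 3 had groups without overlap. With the mouse as a block, which compares the organs within the same animals, 0 of 282 genes were called. An unadjusted p under 0.05 was reached by 15 (5.32%), and the adjusted p of all 3 genes was 0.122 in edgeR. This fit kept the 3 healthy and 4 CIA mice with at least 5 labelled cells in both organs. Joint of S1 and muscle of S2 and H6 were left out, and S2 and H6 held 550 and 144 labelled cells in muscle. The samples as well as the pairing therefore differed from the main test. The differences under the block were 1.52 for *Ftl1*, -3.06 for *Igkc* and -2.23 for *H2-Ab1*. DESeq2 without the block called 13 of 225 genes (5.78%), with 44 at an unadjusted p under 0.05 (19.6%). In the main test 35 genes were at an unadjusted p under 0.05 (15.6%). Leaving out H7, S3 or S8 left 0 genes called and leaving out H6 left 1, whereas leaving out H3, H4 or S6 gave 9, 8 and 7.

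*Igkc* ranged from 0 to 513.6 CPM over the joint samples, with 0 in H4, H7, S1 and S3. In muscle it ranged from 53.2 in H4 to 5375 in S8. Mouse T cells are not known to express *Igkc* or *H2-Ab1*, and the list of B and plasma cell markers was present in the muscle cells labelled T cells too, with a UMI in 989 of 1283 cells (77.1%) against 64 of 161 joint cells (39.8%). The same list had a UMI in 45.0% of muscle granulocytes and 10.8% of joint granulocytes, so the organs also differed in cells of another label. The part of B cells, or of their RNA in other cells, in the result was not tested.

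No gene of the T cell receptor passed the filter on low counts in this comparison. Read without that filter, over 20254 genes of which 190 were called (0.938%) and 2581 were at an unadjusted p under 0.05 (12.7%), *Trbc1* was lower in joint by -5.25 on the log2 scale (adjusted p 8.69e-06 in edgeR), *Trbc2* by -4.16 (0.000119), *Cd3d* by -5.06 (0.000153), *Cd3g* by -4.63 (0.000684), *Trac* by -3.53 (0.00405) and *Cd3e* by -3.85 (0.0112). *Bcl11b* (-2.20, adjusted p 0.138), *Il7r* (-2.16, 0.139) and *Trdc* (-2.37, 0.119) did not pass. That fit moved the median of the 225 filtered genes to -0.72, against -0.03 with the filter, so the differences are to be read against that shift. With the mouse as a block, in the same 3 healthy and 4 CIA mice as above, 0 of 18221 genes were called without the filter. An unadjusted p under 0.05 was reached by 202 (1.11%). The adjusted p in edgeR was 0.401 for *Trbc1* (-6.09) and 0.972 for *Trbc2* (-3.97), *Cd3d* (-3.47), *Cd3g* (-3.01), *Trac* (-2.92) and *Cd3e* (-2.59). The samples as well as the pairing differed here too. In healthy mice alone the adjusted p of each of these 6 genes was 0.629, with differences from -2.50 for *Trac* to -5.94 for *Trbc1*. In CIA mice alone *Trbc1* (-5.11, adjusted p 0.00627), *Trbc2* (-4.35, 0.0143), *Cd3d* (-5.08, 0.0152) and *Cd3g* (-4.68, 0.0318) passed, and *Trac* (-3.79, 0.0625) and *Cd3e* (-3.92, 0.114) did not.

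Whether the difference between CIA and healthy mice was itself different in joint and muscle was tested as an interaction over the same 17 samples. Of 286 genes 0 were called (0%), with 11 at an unadjusted p under 0.05 (3.85%), and DESeq2 called 0. *Elane* came nearest, with a CIA effect in joint above that in muscle by 9.18 on the log2 scale (SE 2.03, adjusted p 0.0635 in edgeR). The fit with the mouse as a block kept only the 3 healthy and 4 CIA mice with at least 5 labelled cells in both organs. In that fit the difference was 8.70 and the adjusted p 0.0134 in edgeR. *Elane* was then the 1 gene called of 282 (0.355%), where 8 were at an unadjusted p under 0.05 (2.84%). It also passed without H6 (adjusted p 0.0115), and over 20 alternatives its adjusted p ran from 1.97e-05 to 0.91. Without the filter on low counts 7 genes were called (0.0346%), namely *Elane*, *Mpo*, *Ctsg*, *Prtn3*, *Ms4a3* and the haemoglobin genes *Hbb-bs* and *Hba-a1*. In muscle, *Elane* was at 1660, 1278, 21.8 and 119.3 CPM in H3, H4, H6 and H7, and at 0, 31.7, 0, 4.58 and 0 in S2, S3, S5, S6 and S8. Joint and muscle of H4 therefore differed, at 0 and 1278, as did those of S5, at 1433 and 0. H3, H4 and H7 contributed 9, 24 and 17 *Elane* UMIs in muscle, and the CIA mice 4 in all.

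The share of cells labelled T cells among annotated joint cells was 6.94%, 6.92% and 8.33% in H3, H4 and H7, and 6.94%, 7.94%, 6.07%, 24.6% and 9.64% in S1, S3, S5, S6 and S8. The mean was 7.40% ± 0.81 (SD, n = 3) in healthy and 11.03% ± 7.68 (SD, n = 5) in CIA mice. The difference of 3.63 percentage points had a p of 0.625 in a two-sided exact permutation test over the 56 regroupings, whose smallest possible p is 0.0179, and an adjusted p of 0.714 over 10 cell types. Without S6 the difference was 0.25 points, and with granulocytes and neutrophils taken out of the denominator it was 8.38 points (exact permutation p 0.125). S6 had 14 such cells of 57 annotated cells, for an exact 95% interval of 14.1% to 37.8%. A share of annotated cells also moves with the other cells: granulocytes were 3.15% to 13.9% of the healthy and 14.04% to 54.2% of the CIA joint cells.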

How the data were processed

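The data were Seq-Well single-cell libraries of joint and muscle from healthy and CIA mice. The authors made the deposited UMI counts with Drop-seq tools, Picard and STAR on GRCm38, kept cells by limits on reads, transcripts, genes and mitochondrial share, and assigned cell types from SingleR references, Leiden clusters of counts denoised with DCA, and marker genes enriched in each cluster. The deposited values used here are the raw UMI counts. No doublets were removed here, and no blank or summary rows were present. The members and gene lists were chosen with earlier results of these data known. Positions of genes are those of the GENCODE annotation of GRCm38.

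Counts were summed per mouse and organ for samples with at least 5 cells with the label. Genes were filtered with edgeR's filterByExpr and tested with TMM normalisation and the quasi-likelihood test of edgeR 4.0.16 (R 4.3.3), with Benjamini-Hochberg adjustment over all genes tested and a threshold of 0.05. DESeq2 1.42.0 was an alternative. Summed depth per mouse was 5621 to 73983 UMIs in joint. Shares have exact binomial 95% intervals, thinning was to 400 UMIs per cell, and the limit that a count of 0 allows was 3 counts. Shares of cell types were compared by exact permutation tests over mice. CPM in the text is the UMI count of a gene per 1000000 UMIs of the cells summed.

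Same-numbered joint and muscle samples came from the same animal, so the mouse number pairs them. The correlations of their deviations over 225 genes were 0.092 in H3, 0.194 in H4, 0.06 in H7, 0.345 in S3, -0.277 in S5, -0.123 in S6 and 0.223 in S8. The labels place each mouse's cells in separate libraries. In the comparisons of CIA with healthy joints, p-values measure the spread between mice. The main organ and interaction tests entered joint and muscle of the same animal as separate samples. Their p-values therefore mix the spread within and between animals, unlike those with the mouse as a block. Fits with the mouse as a block kept only the 3 healthy and 4 CIA mice with at least 5 labelled cells in both organs. The scripts were tested on simulated data.

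Genes were named by a rule. It took the marker, receptor, coreceptor, subset factor and cytokine genes of the T cell lists. It also took the 3 members of each function list with the most UMIs in the joint cells labelled T cells. In the CIA comparison, which called fewer than 5 genes, it took the 5 genes with the smallest p in each direction. Called genes of the CIA and organ comparisons were to be named where their groups did not overlap, and at most 5 called genes of the interaction. The 3 called organ genes overlapped and were named all the same. Genes of the primary granule, B lineage, chemokine and basophil groups, *Nr4a3*, *Rgs1*, *Mki67*, *Pf4* and single cells were named after their values were seen. Alternatives were another normalisation, DESeq2, no filter, other minimum cell numbers, the experiment as a term or alone, the mouse as a block, each disease group alone, and leaving out each mouse. Some genes of the lists are not reported here.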

Additional observations from a re-analysis of the deposited data

Results flagged for a closer look

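Among 50 measures in the 5 CIA mice, 11 had 1 mouse farther from the others than Dixon's critical value of 0.71 for 5 samples. Most measures were named genes with at least 10 UMIs over these mice. The rest were the share of cells with the label, their share with a CD3 or receptor UMI and their median UMIs. Chance flags about 1 in 20 groups of normal, independent values. The measures here share the same cells, and several have a lowest value of 0, so the 11 flags cannot be set against that rate. All of the following values are those of S6, in CPM of the joint cells labelled T cells unless stated. They were 395.8 for *Ptprc*, the pan-leukocyte antigen CD45, 593.6 for *Ccr7*, 3463 for *Ccl4*, 5936 for *Nfkbia*, 1286 for *Dusp2*, 1385 for *Egr1*, 593.6 for *Tgfb1* and 6431 for *Junb*. The antigen presentation genes *Cd74*, at 2770, and *H2-Aa*, at 1286, were flagged in the same way, as was the share of cells with the label among annotated joint cells, at 24.56%. Behind these values stand 14 cells with 10107 UMIs, and *Ptprc* rested on 4 UMIs and *Ccr7* on 6.

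Outside the cells with the label, *Cd3d* was found in 13.83% of joint cells labelled granulocytes (105 of 759 cells, 130 UMIs). In the same cells the other 10 genes of CD3 and the receptor had 1 UMI in all, of *Trdc*. The share was 15.95% in S5, 11.32% in S1, 11.11% in S8, 25.0% in S6 (2 of 8 cells), 8.333% in H3 and 0% in H4, H7 and S3. In fibroblasts it was 1.49%. Of the 179 joint cells without a label, 10 (5.587%) held a UMI of CD3 or the receptor, of which 10 of 12 UMIs were *Cd3d*.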

How the results depend on the processing

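No paired analysis was possible because, for CIA against healthy joints, the groups are different animals. That comparison called 0 genes under the settings run, each mouse left out included, except without the filter on low counts, where it called 1. In the comparison of organs (3 calls) DESeq2 called 13 genes, no filter 190, a minimum of 10 cells 21, the experiment CIA alone 0, the experiment as a term 6, healthy mice alone 0, CIA mice alone 5, and leaving out 1 mouse 0 to 9. With the mouse as a replicate block, which pairs the organs and kept only 3 healthy and 4 CIA mice, it called 0. For the difference between organs in the CIA effect (0 calls), no filter gave 7, and a minimum of 1 cell, a minimum of 10 cells, the experiment as a term and the replicate block gave 1 each, *Elane*, while leaving out 1 mouse gave 0 to 1. The cause of these changes was not tested. No value of the CIA comparison that turned its sign was past the threshold: *Vim* was 0.237 without the filter and -0.64 to 0.273 when 1 mouse was left out, *Hmgb2* was -0.077 with a minimum of 10 cells and -0.1 to 0.909, and leaving out 1 mouse gave -0.609 to 0.829 for *Nfkbia*, -0.844 to 0.804 for *Junb*, -0.382 to 0.4 for *H2-D1* and -0.091 to 0.619 for *H2-K1*. Scaling by plain library size moved the median of the 176 genes from 0.075 to -0.103 and the genes higher in CIA from 99 to 67, and no filter moved the median to 0.57. The share of labelled cells kept its direction in each alternative, with 0.25 to 8.38 points. Fits on cells with a CD3 or receptor UMI, or without granulocyte UMIs, were not run for too few cells. At 6 to 58 cells per mouse, genes with a few UMIs are out of reach of the tests.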
